A study of Drosophila melanogaster with 16 samples.

Results

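The genes described here are 10 genes of fat storage and fatty acid synthesis in larvae of the fruit fly *Drosophila melanogaster*: *ACC*, *FASN1*, *FASN2*, *Desat1*, *SREBP*, *Lpin*, *mdy*, *Lsd-1*, *Lsd-2* and *bmm*. They were chosen by gene symbol from the 11982 genes that the array measures with a probe set assigned to a single gene, a rule that uses no measured value, although the list was drawn up with earlier results of these data known. Each of the 10 genes is measured by 1 probe set, a group of short probes whose signals are summarised as 1 intensity. By the gene table of the Release 6 assembly, *mdy*, *FASN1* and *FASN2* lie on chromosome arm 2L, with no other coding gene starting between *FASN1* and *FASN2*. *ACC* and *Lpin* lie on 2R, *bmm* and *SREBP* on 3L, *Lsd-1* and *Desat1* on 3R, and *Lsd-2* on the X chromosome. The probe sets of *Desat1*, *mdy* and *SREBP* are of a kind that can also bind related transcripts, which was not examined further.

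Whole larvae of the third instar, late but still feeding, were pooled by 10, and each pool gave the RNA for 1 array. The groups were Ama-KTT/M/2 raised from the first instar on food with α-amanitin (6 pools, called α-amanitin-fed below), Ama-KTT/M/2 raised without the toxin (5 pools, called untreated) and Canton-S, likewise without it (5 pools). Ama-KTT/M/2 is a single resistant line made isogenic for chromosomes 2 and 3 (its X chromosome was not), Canton-S is a sensitive laboratory wild-type stock, and α-amanitin is a mushroom toxin that blocks RNA polymerase II. The dose was 1.5 μg per g of food by the study's methods, whereas the sample labels give mg. All larvae were kept at 25°C, and growth was slower with the toxin. No toxin-fed Canton-S group is part of the values used here, and the sources used do not state the sex of the larvae.

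In insects, most fat is stored as triglyceride in lipid droplets of the fat body, an organ that combines roles of liver and adipose tissue. Acetyl-CoA is turned into malonyl-CoA and then into fatty acids, which are desaturated, attached to glycerol and packed into droplets coated with perilipins, and lipases release them again. Feeding larvae of the third instar are known to build up such stores for metamorphosis, and at the end of the instar the fat body and the salivary glands switch on storage protein and glue genes.

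The 16 arrays had median intensities of 62.4 to 72.9, and between 19.3 and 22.9% of their probe sets lay under 16, a level treated here as a bound only. The 10 genes stayed above it in every pool, the lowest value being 71.6 for *FASN2*. Replicates are pools of 1 stock collected on a single morning, so that p-values measure the spread between such pools. In whole larvae, fewer cells of a type and less RNA per cell cannot be told apart. Probe sequences were not compared between the stocks, so a difference in intensity between them was not separated from a difference in probe match. Fold changes were fitted on log2(intensity + 16), and a gene was called at an adjusted p under 0.05 over all 18769 probe sets tested.

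In untreated Ama-KTT/M/2, 5 of the 10 genes were higher than in Canton-S (*ACC*, *FASN1*, *FASN2*, *SREBP* and *Lsd-1*), 4 were lower (*Lpin*, *mdy*, *Lsd-2* and *bmm*), and *Desat1* did not pass the test. On α-amanitin, 3 genes were higher than in the same stock on non-toxic food (*bmm*, *Lsd-2* and *Lpin*), 4 were lower (*FASN2*, *ACC*, *Lsd-1* and *FASN1*), and *Desat1*, *mdy* and *SREBP* did not pass. These calls are those of limma, and the rank product test (100 permutations) called none of the 10 genes in any of the 3 comparisons. In it the lowest adjusted p of the 10 genes was 0.0825, for *bmm* between the foods, although it called 860 probe sets higher and 760 lower between the stocks and 896 and 825 between the foods. At an unadjusted p under 0.05 it gave 0 of the 10 genes higher and 3 lower between the stocks, and 1 and 2 between the foods. The calls by limma stand against a background of 28.7% of all genes higher and 20.3% lower between the stocks, and of 21% higher and 19.6% lower between the foods. Among 7747 genes with a mean intensity of at least 64, to which all 10 belong, the shares were 37.1 and 22% between the stocks and 22.1 and 26.5% between the foods. No member reached 2-fold in any comparison, as 4.26% of genes did upwards and 2.85% downwards between the stocks, and 2.31 and 1.52% between the foods. At a mean of at least 64 these shares were 6.05 and 3.42% between the stocks and 2.93 and 2.22% between the foods. The comparisons share the arrays of untreated Ama-KTT/M/2, so that a gene whose level stood apart in that group differs from both others with opposite signs.

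**Figure D1:**
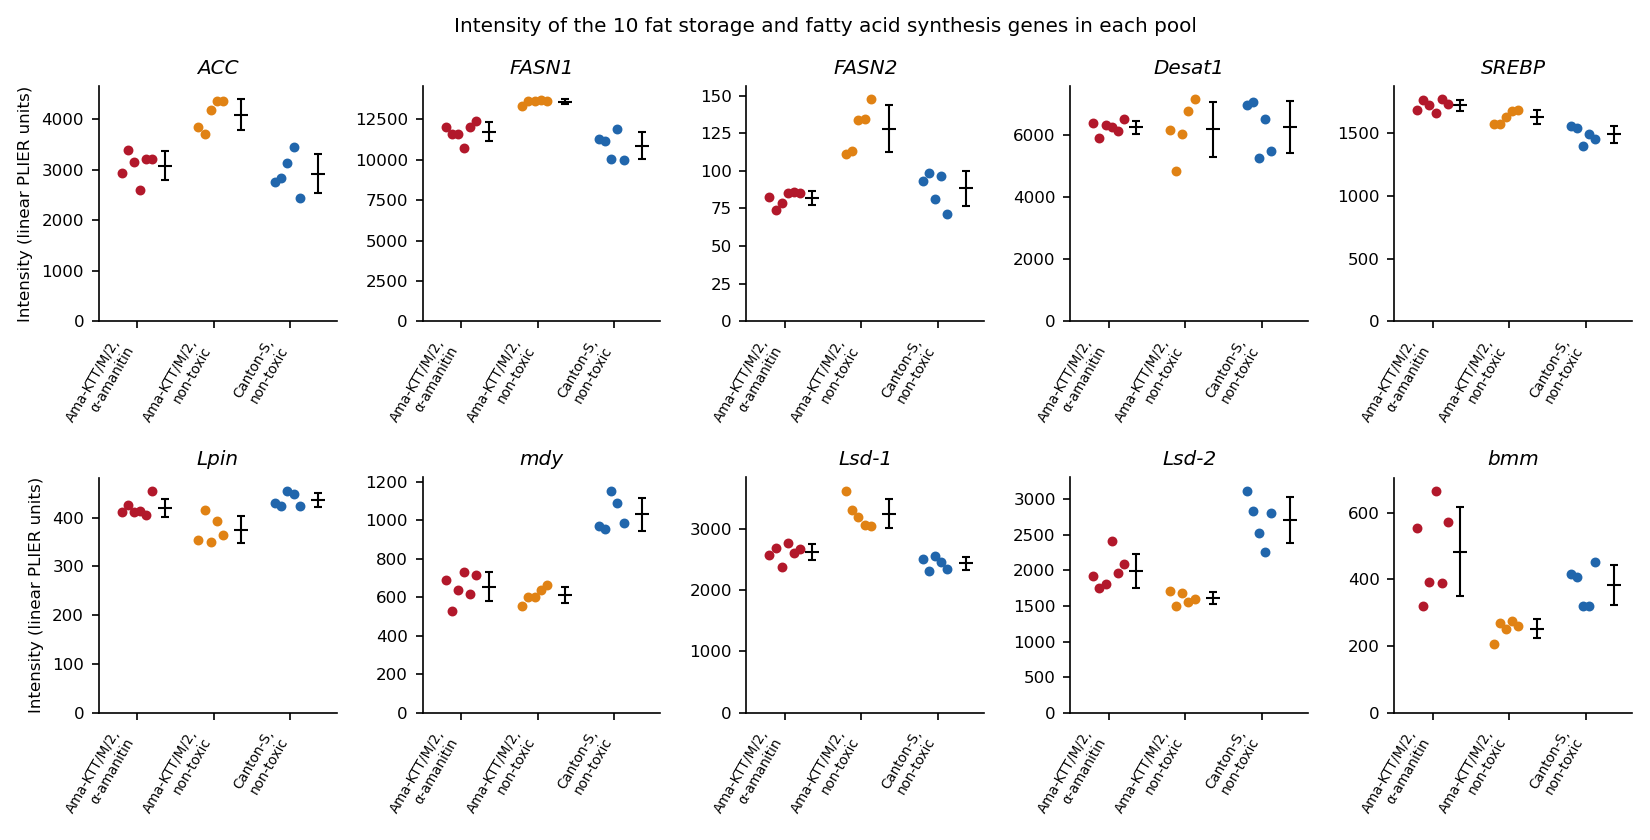
Intensity (linear PLIER units, y axes from 0) of each gene in each pool, with α-amanitin-fed Ama-KTT/M/2 in red (6 pools), untreated Ama-KTT/M/2 in orange (5 pools) and untreated Canton-S in blue (5 pools); black bars give the mean and the SD. *ACC*, *FASN1*, *FASN2* and *Lsd-1* are highest and *Lsd-2* and *bmm* lowest in untreated Ama-KTT/M/2, without overlap with either other group.

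*ACC* encodes acetyl-CoA carboxylase, which makes malonyl-CoA in the committed step of fatty acid synthesis. Its intensities in α-amanitin-fed Ama-KTT/M/2 had a lowest value of 2593, a median of 3181 and a highest value of 3393. In untreated Ama-KTT/M/2 it had 3838, 3702, 4186, 4350.4 and 4359 in replicates 1 to 5, and Canton-S had 2758, 2828, 3127, 3439.8 and 2445. All 5 Ama-KTT/M/2 pools on non-toxic food thus lay above all 11 other pools, whereas the remaining groups overlapped. By limma, *ACC* was 1.40-fold higher in untreated Ama-KTT/M/2 compared with Canton-S (log2 fold change 0.49 ± 0.09, SE, adjusted p = 3.26e-04), and 1.33-fold lower on α-amanitin than on non-toxic food (-0.41 ± 0.09, adjusted p = 0.00179).

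*FASN1* encodes the fatty acid synthase of the larval fat body, and *FASN2* its neighbouring paralogue, known from oenocytes, the cells that make the waxy hydrocarbons of the cuticle. *FASN1* ranged between 10749.9 and 12402 (median 11819.7) in α-amanitin-fed Ama-KTT/M/2, between 13342 and 13719 in untreated Ama-KTT/M/2 and between 9975 and 11904 in Canton-S. The pools of untreated Ama-KTT/M/2 were close to each other, with an SD of 145 against 569.9 on α-amanitin and 829.5 in Canton-S, and stood above all others. The mean intensity of *FASN1* was above that of 99.96% of genes. How far the normalization sets the spread at that level was not tested. Its log2 fold change was 0.33 ± 0.06 (SE, adjusted p = 1.81e-04) between the stocks and -0.21 ± 0.05 (adjusted p = 0.00639) between the foods.

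*FASN2* had a lowest value of 73.8, a median of 83.9 and a highest value of 85.8 in α-amanitin-fed Ama-KTT/M/2. Untreated Ama-KTT/M/2 had 111, 113, 134, 134 and 147 in replicates 1 to 5, and Canton-S had 93.4, 98.5, 81.6, 96.3 and 71.6. Again all untreated Ama-KTT/M/2 pools were above every other pool. The fitted difference was 0.47 ± 0.08 (log2, SE, adjusted p = 2.58e-04) between the stocks and -0.55 ± 0.08 (adjusted p = 8.22e-05) between the foods, which is 1.47-fold lower on α-amanitin. At these low intensities the added 16 reduces the fitted fold, and the ratio of mean intensities between the foods was 1.56.

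*Desat1*, the fatty acid desaturase that puts the first double bond into palmitic and stearic acid, did not pass the test in any comparison. It ranged between 5885 and 6501 (median 6266) in α-amanitin-fed Ama-KTT/M/2, between 4820.2 and 7133 in untreated Ama-KTT/M/2 and between 5246 and 7053 in Canton-S. The pools of either stock on non-toxic food therefore spread more widely (SD of 883 for Ama-KTT/M/2 and of 839 for Canton-S) than those on α-amanitin (SD of 215). The 95% interval of its log2 fold change was -0.23 to 0.19 between the stocks and -0.18 to 0.23 between the foods.

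*SREBP* encodes the membrane-bound transcription factor that, once cleaved, activates *ACC* and fatty acid synthase genes in flies. Its intensities were 1655 to 1767 (median 1725) in α-amanitin-fed Ama-KTT/M/2, 1571 to 1684 in untreated Ama-KTT/M/2 and 1399 to 1558 in Canton-S. The Canton-S pools lay below all pools of Ama-KTT/M/2, and the foods overlapped. The difference between the stocks was small (1.09-fold, log2 fold change 0.13 ± 0.05, SE, adjusted p = 0.0352) and was lost when any of 6 pools was left out (untreated Ama-KTT/M/2 replicates 3, 4 or 5, or Canton-S replicates 3, 4 or 5, adjusted p = 0.0524 to 0.0876). It became 0.01 (adjusted p = 0.899) when each array was centred on its median, and 0.05 (adjusted p = 0.380) with another quantile normalization.

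*Lpin* encodes the phosphatase that makes diacylglycerol from phosphatidic acid, and *mdy* (*midway*) the acyltransferase that adds the last fatty acid to make triglyceride. *Lpin* ranged between 405 and 455 (median 412) in α-amanitin-fed Ama-KTT/M/2, between 349.8 and 415 in untreated Ama-KTT/M/2 and between 423 and 454 in Canton-S. It was 1.16-fold lower in untreated Ama-KTT/M/2 compared with Canton-S (adjusted p = 0.00488, no overlap). On α-amanitin it was 1.12-fold higher than on non-toxic food (0.16 ± 0.05, adjusted p = 0.0270), with overlapping pools, and this call was lost without α-amanitin replicate 6 or without non-toxic replicate 1, 3 or 5 (adjusted p = 0.0581 to 0.0774).

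*mdy* separated the stocks rather than the foods. It had a lowest value of 530.3, a median of 665 and a highest value of 733 in α-amanitin-fed Ama-KTT/M/2. In untreated Ama-KTT/M/2 it had 556, 602, 603, 637 and 663, and Canton-S had 972, 953, 1154, 1089 and 989. Every Canton-S pool was above every pool of Ama-KTT/M/2, while the 2 foods overlapped. The gene was 1.67-fold lower in untreated Ama-KTT/M/2 compared with Canton-S (-0.74 ± 0.08, SE, adjusted p = 2.56e-06) and 1.57-fold lower on α-amanitin than in Canton-S (-0.65 ± 0.08, adjusted p = 1.01e-05). Between the foods its log2 fold change was 0.09 (95% interval -0.08 to 0.26, adjusted p = 0.425).

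*Lsd-1* and *Lsd-2* encode the perilipins of the fly, proteins that coat lipid droplets: *Lsd-1* is needed for hormone-stimulated lipolysis, and *Lsd-2* shields stored fat. *Lsd-1* had a lowest value of 2379, a median of 2642 and a highest value of 2757 in α-amanitin-fed Ama-KTT/M/2. Untreated Ama-KTT/M/2 had 3615, 3297, 3196, 3066 and 3038, and Canton-S had 2501, 2304, 2560.0, 2462 and 2349. The non-toxic Ama-KTT/M/2 pools were all higher than the others. *Lsd-1* was 1.33-fold higher than in Canton-S (0.41 ± 0.06, SE, adjusted p = 2.60e-05), and 1.24-fold lower on α-amanitin than on non-toxic food (-0.31 ± 0.06, adjusted p = 5.17e-04).

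*Lsd-2* took the opposite course in both comparisons. Its lowest, median and highest intensities in α-amanitin-fed Ama-KTT/M/2 were 1752, 1946 and 2412. In untreated Ama-KTT/M/2 it had 1703, 1494, 1676, 1555 and 1603, and Canton-S had 3116, 2828, 2519, 2259 and 2799. The non-toxic Ama-KTT/M/2 pools were below all other pools, and the α-amanitin pools lay between the other groups, with 1 of them above the lowest Canton-S pool. *Lsd-2* was 1.67-fold lower in untreated Ama-KTT/M/2 compared with Canton-S (-0.74 ± 0.09, SE, adjusted p = 5.73e-06) and 1.23-fold higher on α-amanitin than on non-toxic food (0.30 ± 0.09, adjusted p = 0.0136). The call between the foods was lost when the replicate number was fitted as a block. On α-amanitin *Lsd-2* stayed 1.35-fold lower than in Canton-S (-0.44 ± 0.09, adjusted p = 0.00103).

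*bmm* (*brummer*) encodes the main triglyceride lipase of the fat body, the fly counterpart of adipose triglyceride lipase. It had 553, 322, 393, 666, 391 and 572 in α-amanitin replicates 1 to 6, with a median of 473. Untreated Ama-KTT/M/2 had 207, 271, 251, 275 and 259.8, and Canton-S had 416, 409, 319, 320.0 and 452. The pools of untreated Ama-KTT/M/2 were the lowest and did not overlap the others, and those on α-amanitin differed most among themselves. *bmm* had the largest change of the 10 genes between the foods, 1.81-fold higher on α-amanitin (0.85 ± 0.16, SE, adjusted p = 6.52e-04), and was 1.48-fold lower in untreated Ama-KTT/M/2 compared with Canton-S (-0.56 ± 0.17, adjusted p = 0.0113).

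**Figure D2:**
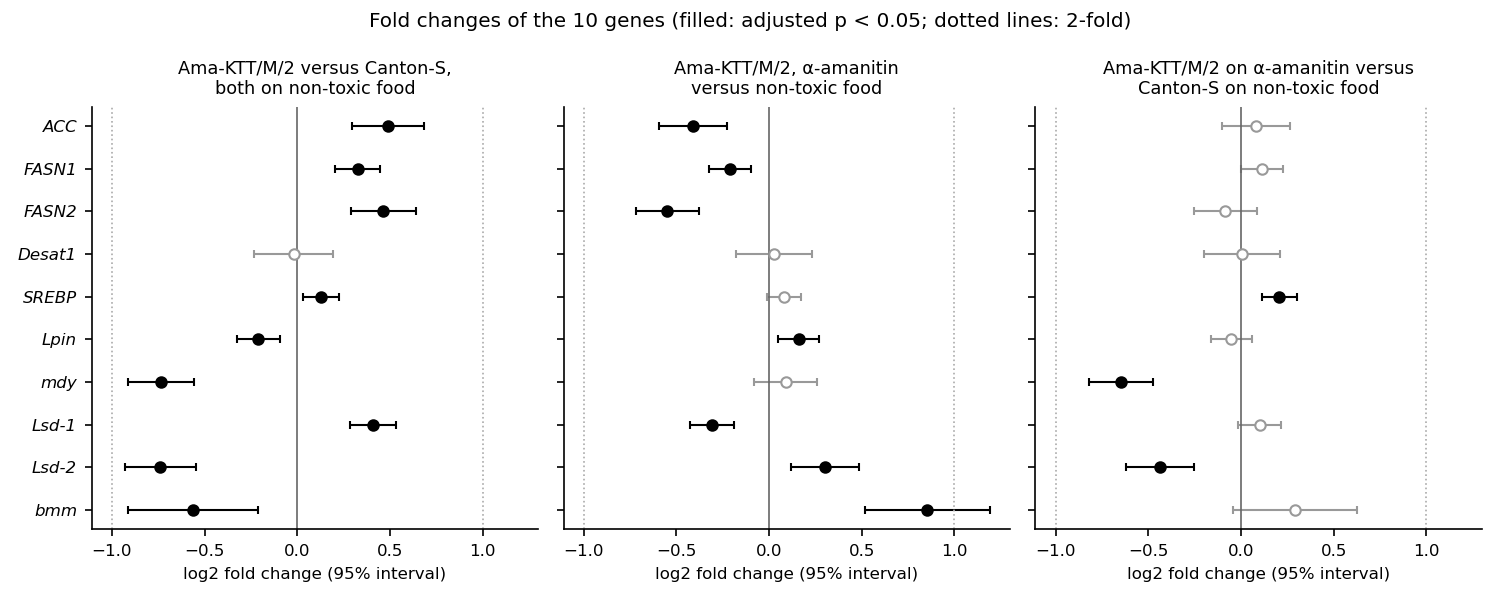
Fitted log2 fold changes of the 10 genes (points) with 95% intervals (bars) in the 3 comparisons; filled points passed the test at an adjusted p under 0.05, and dotted lines mark 2-fold. Of the 10 genes, 9 passed between the stocks on non-toxic food, 7 between the foods, and 3 (*SREBP*, *mdy* and *Lsd-2*) between α-amanitin-fed Ama-KTT/M/2 and Canton-S.

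The ranges of untreated Ama-KTT/M/2 lay above those of both other groups for 4 genes (*ACC*, *FASN1*, *FASN2* and *Lsd-1*) and below both for 2 (*Lsd-2* and *bmm*). Among all genes, 10.5% lay above and 5.86% below in this way. Between the stocks the pools of 5 genes did not overlap in the higher and of 4 in the lower direction. All genes gave 22.9 and 14.5% there, and genes with a mean of at least 64 gave 31.3 and 17.1%. Between the foods the pools did not overlap for 2 genes higher and 4 lower on α-amanitin. The shares were 12.5 and 14.3% of all genes, and 14.9 and 20.2% at a mean of at least 64. The median log2 fold change of the 10 genes was 0.05 in both comparisons, beside 0.02 for all genes in both, with members in both directions.

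The comparison of α-amanitin-fed Ama-KTT/M/2 with Canton-S is between groups that differ in both stock and food. Only *SREBP* was higher (1.15-fold, 0.21 ± 0.04, SE, adjusted p = 0.00179, no overlap), while *mdy* and *Lsd-2* were lower with the values given above. In this comparison 22.8% of all genes were higher and 12.1% lower (28.9 and 14.1% at a mean of at least 64). Of all genes 13.3 and 8.33% did not overlap upwards and downwards (17.6 and 10% at a mean of at least 64). The other 7 genes did not pass the test. Their log2 fold changes lay between -0.09 for *FASN2* (95% interval -0.26 to 0.08) and 0.29 for *bmm* (-0.05 to 0.63), with 0.08 for *ACC*, 0.11 for *FASN1*, 0.10 for *Lsd-1*, -0.05 for *Lpin* and 0.01 for *Desat1*.

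The pools also differed in genes that mark the end of the third instar, and these marker values moved with several of the 10 genes. Of 7 fat body markers listed, 4 were measured with a probe set of their own (*Lsp2*, *Fbp1*, *Fbp2* and *apolpp*). Their summed intensity was 15092 to 42646 in α-amanitin-fed Ama-KTT/M/2, 11381 to 13095 in untreated Ama-KTT/M/2 and 24844 to 41679.6 in Canton-S. On non-toxic food *Fbp1* and *Fbp2* averaged under 16 in Ama-KTT/M/2, whereas *apolpp*, the lipoprotein made by the fat body throughout larval life, averaged 11663 in α-amanitin-fed and 11623 in untreated Ama-KTT/M/2, and 11789.7 in Canton-S. The labelled whole larvae thus held fat body RNA in every group.

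All 6 salivary gland glue genes of the marker list were measured. They summed to 8.04 to 51929 in α-amanitin-fed Ama-KTT/M/2, 6.04 to 14.5 in untreated Ama-KTT/M/2 and 1639.8 to 26436 in Canton-S, with all 6 genes averaging under 16 in untreated Ama-KTT/M/2. Within the α-amanitin group, replicate 2 had the lowest glue and fat body sums and also the lowest *bmm* (322) and *Lsd-2* (1752) and the highest *ACC* (3393), while replicate 4 had the highest sums, the highest *bmm* (666) and *Lsd-2* (2412) and the lowest *ACC* (2593). Within Canton-S, replicate 4 had the lowest sums together with the lowest *Lsd-2* (2259) and the highest *ACC* (3439.8). Replicate 5 had the highest glue sum with the highest *bmm* (452) and the lowest *ACC* (2445). After subtraction of the group means, Pearson's r of log2 values to the mean of the glue genes was 0.69 for *bmm*, 0.65 for *Lsd-2* and -0.58 for *ACC*. These were the largest in size of all members, followed by *mdy* (0.51). They depend strongly on α-amanitin replicate 2 (glue sum 8.04, the others of its group 32377 to 51929). Canton-S replicate 4 also stood apart (1639.8, the others 11132 to 26436). Untreated Ama-KTT/M/2 hardly varied in glue genes and adds little to r. For *Lsd-1*, *FASN1*, *FASN2*, *Desat1*, *SREBP* and *Lpin* r to the glue genes lay between -0.25 and 0.08. Members also moved with other marker lists within groups. To the mean of the muscle markers r was 0.86 for *Desat1*, 0.72 for *SREBP*, 0.61 for *FASN1*, 0.59 for *ACC* and 0.58 for *FASN2*. For the other members it lay between -0.27 and -0.07. For *bmm* and *Lsd-2* r was 0.64 and 0.61 to the fat body, 0.63 and 0.58 to the oenocyte and 0.49 and 0.11 to the midgut markers.

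**Figure D3:**
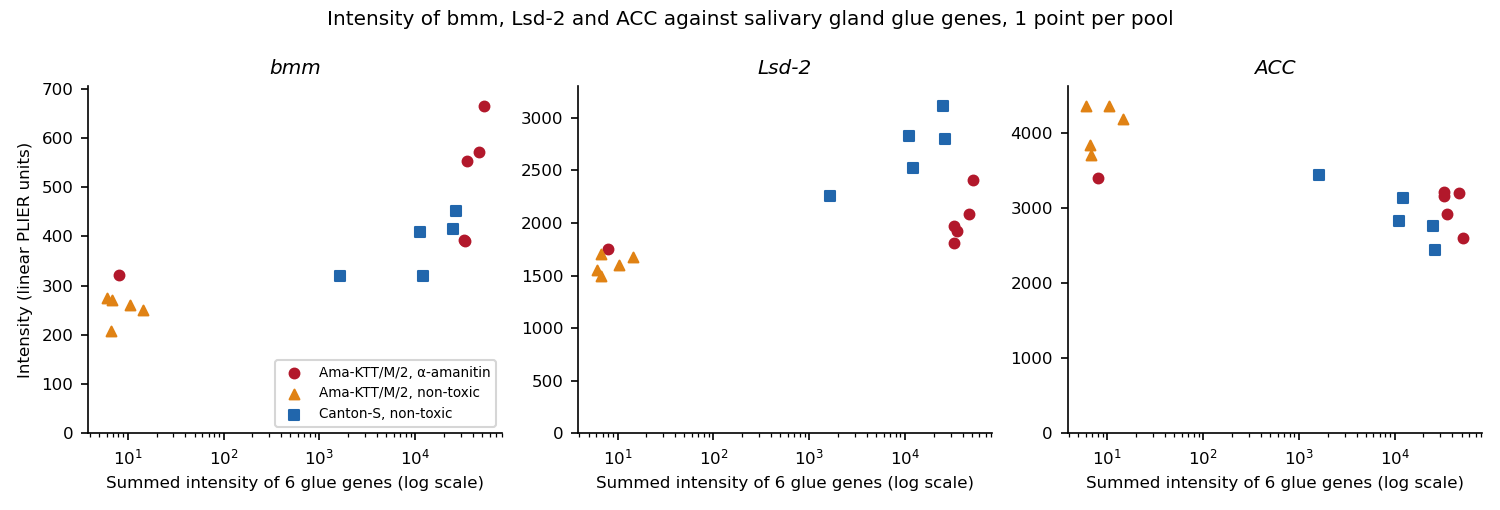
Intensity of *bmm*, *Lsd-2* and *ACC* (y axes from 0, linear PLIER units) against the summed intensity of 6 salivary gland glue genes in the same pool (log scale), 1 point per pool. After subtraction of the group means, these had the largest r to the glue genes of all members, in either direction. The untreated Ama-KTT/M/2 pools, at glue sums of 6.04 to 14.5, add little to it. The α-amanitin pool at a glue sum of 8.04 (red point at the left) is the one with the lowest *bmm* (322) and *Lsd-2* (1752) and the highest *ACC* (3393) of its group.

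The part of these markers in the differences of the 10 genes was not tested. Without the 3 pools that stand apart in them (α-amanitin replicate 2, Ama-KTT/M/2 non-toxic replicate 5 and Canton-S replicate 4, a choice made after seeing the data), 4 genes were higher and 4 lower between the stocks, and 2 were higher and 4 lower between the foods, the calls of *SREBP* (adjusted p = 0.119) and *Lpin* (adjusted p = 0.0946) being lost. The α-amanitin and Canton-S pools left out had the lowest glue sums of their groups, nearest to those of untreated Ama-KTT/M/2. The untreated pool left out had the highest fat body sum of its group. Leaving these pools out therefore cannot separate the markers from the groups. The other marker lists were measured for 3 of 3 oenocyte, 6 of 7 midgut, 3 of 5 muscle and 3 of 3 haemocyte genes. The oenocyte markers are genes of the cells in which *FASN2* is known to act. They summed to 3113 to 3686 in α-amanitin-fed Ama-KTT/M/2, 2399 to 2932 in untreated Ama-KTT/M/2 and 2899 to 3425 in Canton-S. Their lowest range was in the group in which *FASN2* was highest, and the sums were made up mostly of *Cyp4g1*. Pearson's r of log2 values between *FASN2* and the mean of these markers was -0.50 over the 16 arrays. After subtraction of the group means it was 0.72. Midgut markers summed to 39524 to 45075 in α-amanitin-fed and 41826 to 46839 in untreated Ama-KTT/M/2, and to 50664 to 54640.4 in Canton-S. These sums hold genes that moved in opposite directions: on α-amanitin *LManVI* was 3.92-fold and *Jon99Ci* 2.42-fold higher than on non-toxic food, whereas *betaTry* (1.32-fold), *Jon65Aiii* (1.23-fold) and *Jon65Aiv* (1.13-fold) were lower. Muscle markers summed to 11134 to 12251 in α-amanitin-fed and 7855 to 10779.9 in untreated Ama-KTT/M/2, and to 9987 to 12094 in Canton-S. The muscle gene *Mlc2* went against its sum, with a mean of 359 in α-amanitin-fed and 583 in untreated Ama-KTT/M/2 and 329 in Canton-S, and passed the test between the foods (1.60-fold lower) and between the stocks (1.74-fold higher). Haemocyte markers were lowest in untreated Ama-KTT/M/2 too, at 1233 to 1406, against 1489 to 1791 in α-amanitin-fed larvae and 1601 to 2228 in Canton-S, a sum made up mostly of *Hml*. *NimC1*, of the same list, was instead 3.28-fold higher in untreated Ama-KTT/M/2 compared with Canton-S (adjusted p = 9.76e-10). Its mean intensities were 118 in untreated Ama-KTT/M/2 and 25.3 in Canton-S, a ratio of 4.68 without the added 16.

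Across the 16 arrays the 10 genes did not form 1 block. Over their 45 pairs, Pearson's r of the log2 values ranged between -0.83 and 0.87 with a median of 0.07, given as a description because the pools share stock, food and stage. After subtraction of the group means it ranged between -0.68 (*Lsd-2* with *ACC*) and 0.78 (*FASN2* with *Desat1*), with a median of 0.12. *ACC* and *FASN1* had r = 0.87 over all arrays and 0.56 within groups, and *bmm* and *Lsd-2* had 0.67 within groups.

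The genes whose pattern over the 16 arrays was most like that of a member were in no case other members. Likeness was measured by Pearson's r of log2 values among 7746 genes with a mean intensity of at least 64. For *bmm* they were *BaraB* (r = 0.97), *Alp1* (0.97) and *CG17562* (0.96), for *Lsd-2* *Ser8* (0.97), *CG31778* (0.97) and *Asap* (0.96), and for *ACC* *SdhC* (0.97), *mRpS16* (0.97) and *SmydA-1* (0.96). *Desat1* was most like *Rtnl1*, with r = 0.95 both over all arrays and after subtraction of group means. After that subtraction *BaraB* still had r = 0.91 to *bmm*, *Ser8* 0.85 to *Lsd-2* and *SdhC* 0.91 to *ACC*. The leading genes of the others were *CG8064* for *Lsd-1* (0.95), *mip120* for *FASN1* (0.96), *eIF4B* for *FASN2* (0.95), *Gr59d* for *mdy* (0.97), *lsn* for *SREBP* (0.96) and *ich* for *Lpin* (0.86).

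The neighbouring steps of fat metabolism were read from lists of other genes. Their counts stand beside the shares given above for all genes, 28.7% higher and 20.3% lower between the stocks and 21 and 19.6% between the foods, and no list was tested against them. Among 9 triglyceride synthesis genes outside the 10, 4 were higher and 1 lower on α-amanitin than on non-toxic food, and 3 were higher and 2 lower in Ama-KTT/M/2 compared with Canton-S, the counts between the stocks being near the shares of all genes. *Agpat2*, an acyltransferase that makes phosphatidic acid, was 2.02-fold higher on α-amanitin (1.01 ± 0.10, SE, adjusted p = 2.82e-06), with 1069 to 1467 in α-amanitin-fed Ama-KTT/M/2, 531 to 726 in untreated Ama-KTT/M/2 and 651 to 871 in Canton-S. *Dgat2*, which like *mdy* completes triglyceride, had 464 to 643 in α-amanitin-fed and 309.7 to 350.2 in untreated Ama-KTT/M/2, and 431 to 505 in Canton-S, without overlap between the foods. It was 1.65-fold higher on α-amanitin (adjusted p = 2.11e-06) and 1.40-fold lower in untreated Ama-KTT/M/2 compared with Canton-S (adjusted p = 5.75e-05). *mino*, a glycerol-3-phosphate acyltransferase, was 1.39-fold higher on α-amanitin, and *Gpat4*, of the same enzyme class, was 1.37-fold higher in Ama-KTT/M/2 compared with Canton-S. The median log2 fold change of this list was 0.13 between the foods and -0.08 between the stocks, beside 0.02 for all genes.

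**Figure D4:**
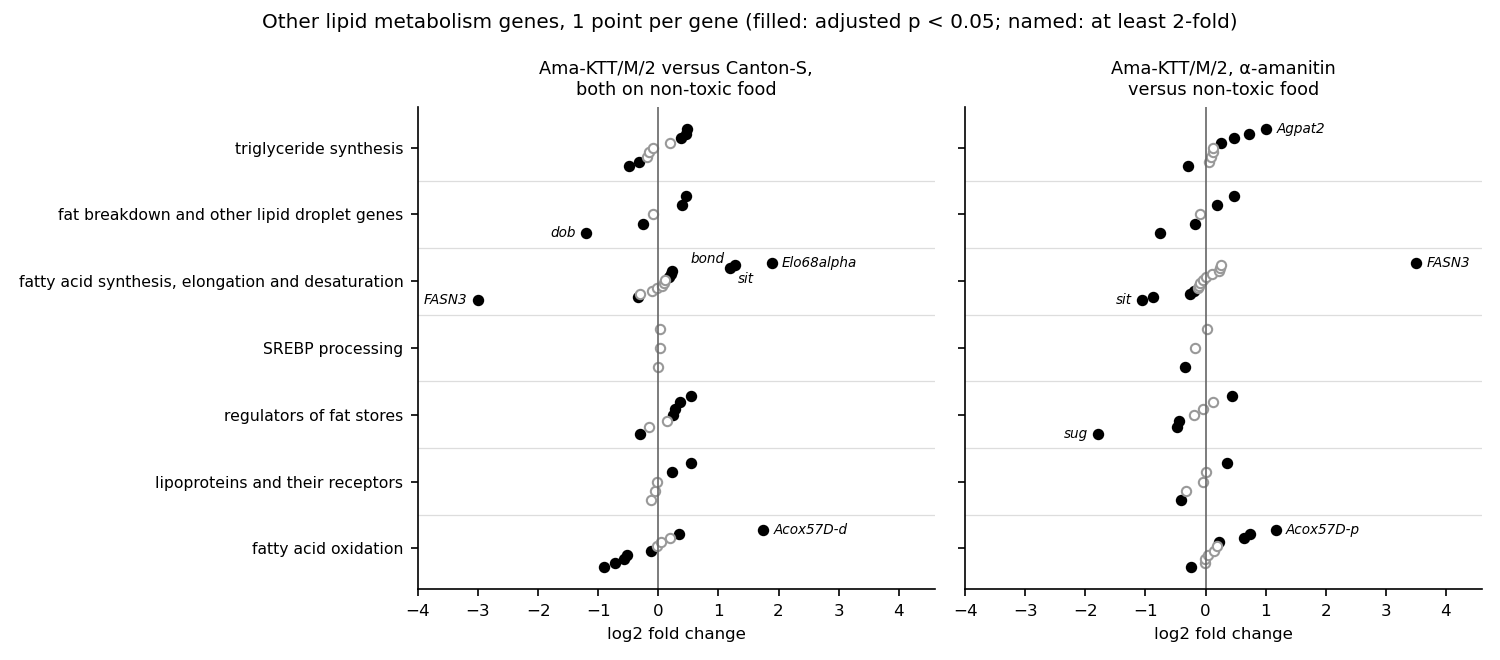
Log2 fold changes of the measured genes of 7 lists of lipid metabolism outside the 10 genes, 1 point per gene, between the stocks on non-toxic food (left) and between the foods (right). Filled points passed the test, and those at 2-fold or more are named; *FASN3* lies furthest from 0 in both panels (-3.01 and 3.51).

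Of 14 other genes of fatty acid synthesis, elongation and desaturation measured, 6 were higher and 2 lower in Ama-KTT/M/2 compared with Canton-S, and 1 was higher and 4 lower on α-amanitin than on non-toxic food. *FASN3*, the remaining fatty acid synthase of the fly and one of oenocytes, moved against *FASN1* and *FASN2*. It had 995, 262, 748, 1315, 749.6 and 864 in the 6 α-amanitin pools. In untreated Ama-KTT/M/2 it had 26.7, 80.0, 33.3, 42.7 and 96.5, and Canton-S had 858, 802, 264, 309 and 670.0. All pools of untreated Ama-KTT/M/2 were below all others, and α-amanitin replicate 2, the lowest in glue genes, was also the lowest in *FASN3*. The gene was 11.4-fold higher on α-amanitin (3.51 ± 0.39, SE, adjusted p = 8.55e-06) and 8.04-fold lower in untreated Ama-KTT/M/2 compared with Canton-S (-3.01 ± 0.41, adjusted p = 1.75e-05).

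The elongase genes *bond* and *sit* took the same course as *ACC*, *FASN1* and *FASN2*. *bond* was 2.43-fold higher in untreated Ama-KTT/M/2 compared with Canton-S (adjusted p = 2.79e-05) and 1.83-fold lower on α-amanitin (adjusted p = 0.00124), and *sit* was 2.28-fold higher (adjusted p = 0.00129) and 2.07-fold lower (adjusted p = 0.00382). The elongase gene *Elo68alpha* had 31.6 to 78.0 in α-amanitin-fed and 36.8 to 71.1 in untreated Ama-KTT/M/2, and was under 16 in all Canton-S pools (adjusted p = 4.39e-07 between the stocks). No fold is given for it because its level in Canton-S is only a bound.

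Of 3 genes that carry or cleave the SREBP protein, none passed between the stocks (2 had a log2 fold change above 0 and 1 below), and *S1P*, a protease that cleaves SREBP, was 1.27-fold lower on α-amanitin than on non-toxic food (-0.35 ± 0.07, SE, adjusted p = 0.00177). Of 7 regulators of fat stores, 4 were higher and 1 lower between the stocks, and 1 was higher and 3 lower between the foods. *sug* (*sugarbabe*), a transcription factor induced by dietary sugar, had 88.2 to 146 (median 104) in α-amanitin-fed Ama-KTT/M/2, 367 to 517 in untreated Ama-KTT/M/2 and 250.3 to 366 in Canton-S. The 3 groups did not overlap, and *sug* was 3.45-fold lower on α-amanitin (-1.79 ± 0.12, adjusted p = 2.70e-08) and 1.46-fold higher in untreated Ama-KTT/M/2 compared with Canton-S (adjusted p = 0.00222). *Mondo*, the sugar-sensing factor upstream of *sug*, was 1.36-fold lower on α-amanitin (adjusted p = 2.11e-04), and *AkhR*, the receptor of the fat-mobilising adipokinetic hormone, was 1.40-fold lower (adjusted p = 0.00734).

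Of 5 other genes of fat breakdown and lipid droplets measured, 2 were higher and 2 lower in each of these comparisons. *dob*, the closest relative of *bmm*, was 2.30-fold lower in untreated Ama-KTT/M/2 compared with Canton-S (-1.20 ± 0.16, SE, adjusted p = 9.22e-06). On α-amanitin it was 1.40-fold higher (adjusted p = 0.0196). These were the directions of both *bmm* and *Lsd-2*, close to which *dob* lies on the X chromosome. In α-amanitin-fed Ama-KTT/M/2 *dob* was 1.65-fold lower than in Canton-S (adjusted p = 0.00132), as *Lsd-2* was, whereas *bmm* did not pass (0.29). *puml*, a hydrolase of lipid droplets, was 1.68-fold lower on α-amanitin (adjusted p = 2.19e-04), and *Seipin*, which acts in droplet formation, was 1.37-fold higher in Ama-KTT/M/2 compared with Canton-S (adjusted p = 1.67e-05). The fat body hormone-sensitive lipase gene *Hsl* was not analysed here, since no probe set is named for it alone.

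Among 10 measured genes of fatty acid oxidation, 2 were higher and 5 lower in untreated Ama-KTT/M/2 compared with Canton-S, and 4 were higher and 1 lower on α-amanitin than on non-toxic food. The acyl-CoA oxidase gene *Acox57D-p* was 2.24-fold higher on α-amanitin (1.17 ± 0.09, SE, adjusted p = 1.71e-07) and 1.65-fold lower between the stocks (adjusted p = 1.24e-05). Its paralogue *Acox57D-d* was 3.35-fold higher in Ama-KTT/M/2 compared with Canton-S (1.74 ± 0.07, adjusted p = 9.88e-12), with 1214 to 1476 in untreated Ama-KTT/M/2 against 371 to 424 in Canton-S, and had a log2 fold change of 0.15 between the foods (adjusted p = 0.111). The thiolase gene *yip2* was 1.66-fold higher on α-amanitin (adjusted p = 2.78e-08) and the acyl-CoA synthetase gene *pdgy* 1.56-fold higher (adjusted p = 0.00142), and both were lower in Ama-KTT/M/2 compared with Canton-S (1.43-fold and 1.88-fold). Of 5 lipoprotein and lipoprotein receptor genes, 1 was higher (*Mtp*, 1.28-fold, which loads lipoproteins with lipid) and 1 lower (*Apoltp*, 1.33-fold, a lipid transfer particle protein) on α-amanitin. Between the stocks 2 were higher and 0 lower, and *Apoltp* was 1.46-fold higher in untreated Ama-KTT/M/2 compared with Canton-S (adjusted p = 1.67e-04).

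Between α-amanitin-fed Ama-KTT/M/2 and Canton-S, 6 of the 9 triglyceride synthesis genes were higher and none lower, where 22.8% of all genes were higher and 12.1% lower (28.9 and 14.1% at a mean of at least 64). They included *Agpat2* at 1.61-fold, *CG1941*, a gene of the *Dgat2* family, at 1.53-fold and *Gpat4* at 1.43-fold. The list's median log2 fold change was 0.31, beside 0.07 for all genes. Of the 14 genes of fatty acid synthesis, elongation and desaturation 2 were higher and 1 lower, of the 10 oxidation genes 5 were higher and 1 lower (*Acox57D-d* 3.71-fold higher), and of the 7 regulators 1 was higher (*foxo*, 1.29-fold) and 1 lower (*sug*, 2.37-fold). Among the 5 genes of fat breakdown and droplets 1 was higher and 2 were lower, among the 3 of SREBP processing 1 was lower, and among the 5 lipoprotein and receptor genes *Mtp* was higher (1.51-fold) and *LpR2* lower (1.37-fold).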

How the data were processed

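The arrays were Affymetrix Drosophila Genome 2.0, and the data were extracted from the scanned images with Expression Console 1.2. The authors deposited 1 intensity per probe set and array, on a linear scale. By the study's methods it was made in Affymetrix Power Tools with the PLIER algorithm after quantile normalization and mismatch adjustment. Of 18952 probe sets, 183 controls were left out; 13647 of the others have 1 gene in the platform's probe gene table, 402 several and 4720 none. Genes with several probe sets were read from the brightest one. All columns were mapped by their labels, and none of 120 array pairs held identical values.

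The values were fitted as log2(intensity + 16) with limma 3.58.1 (lmFit, eBayes) in R 4.3.3 over 16 arrays in 3 groups, without covariate, and the Benjamini-Hochberg adjustment ran over the 18769 probe sets of a comparison. Intensities are not converted to transcript numbers, so levels of different genes were not compared; the number of pools limits the precision. The script was tested on simulated data. The settings varied were the offset (1 and 64), a filter on means under 64, further normalization or centring, array weights, the 2 groups alone, a replicate block, the rank product test that the study used, and leaving out pools. Text and figures name all 10 genes and, from each other list, up to 3 genes with the largest change among those passing in a comparison, and for likeness the 3 genes of highest r. The genes and lists were chosen with earlier results of these data known. Figures were drawn with Python 3.11.15 and matplotlib 3.10.9. Sequences and coordinates are not printed.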

Additional observations from a re-analysis of the deposited data

Results flagged for a closer look

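Among the 30 sets of pools formed by 10 genes and 3 groups, 1 held a pool far from the rest. *FASN1* had an intensity of 13342 in replicate 1 of untreated Ama-KTT/M/2, while the other 4 pools of that group lay between 13626 and 13719, a gap of 0.752 of the whole range (Dixon's test). Chance marks about 1 in 20 sets in this way. The pool still lay above every pool of the other groups, and the cause was not tested.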

How the results depend on the processing

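Over 620 recomputed fold changes of the 10 genes, 601 kept their direction and their side of the threshold, 18 lost the call, 1 gained it and 0 changed sign. The lost calls were those of *SREBP* between the stocks, *Lpin* between the foods and, with a replicate block, *Lsd-2* between the foods (0.29, adjusted p = 0.0547); *SREBP* passed between the foods only when arrays were centred (0.12, adjusted p = 0.0450). Centring shifted the median gene by -0.12 between the stocks and 0.04 between the foods. Leaving out single pools gave 4 to 5 genes higher and 4 lower between the stocks, 2 to 3 higher and 4 lower between the foods, and 1 higher and 2 lower between α-amanitin-fed Ama-KTT/M/2 and Canton-S. With the replicate number as a block, 1 gene was higher and 4 lower between the foods, so the 3 higher calls became 1; other counts stayed within 1.5 times. The labels do not say that equal numbers belong together, and the main fit did not pair the pools. In a check, r of same-numbered pools was -0.55 to 0.41 over 15 pairs, with 7 above 0.1. Between the foods it was -0.03 to 0.41, with 4 of 5 above 0.1, and a shared batch there was not tested. In 30 checks, each of 1 pool against the 5 pools of another group, 8 found the same number to be the most alike. The same pools entered several checks. The rank product test with 100 permutations called 0 of the 10 genes higher and 0 lower in all 3 comparisons; at an unadjusted p under 0.05 it gave 0 higher and 3 lower between the stocks, 1 and 2 between the foods and 0 and 2 between α-amanitin-fed Ama-KTT/M/2 and Canton-S, where limma called 5 and 4, 3 and 4, and 1 and 2. The cause was not tested. *FASN2* had the lowest mean intensity of the 10 genes (98.2), above that of 43.3% of genes, and the other 9 were brighter than at least 72.7%; background per probe set was not analysed here.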
